A study of Canis lupus familiaris with 34 samples.

Results

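Osteosarcoma is a bone-forming tumour of mesenchymal cells that arises often in large dogs. The 3 cultures described here are OSCA.8 and OSCA.78, osteosarcoma lines labelled as derived from bone tumours, and CNOB, a culture labelled with osteoblast as its source. They were chosen by their labels as all the samples that were not tumour tissue, and make up 3 of 34 RNA sequencing libraries of Canis lupus familiaris. They were compared with 28 primary bone tumours, sequenced as 30 libraries, to find genes shifted in the same direction in malignant and osteoblast cultures alike. No treatment, age, passage or medium is given for any sample. All samples are labelled Golden Retriever, although the submitters' design text also names Rottweilers as donors of tumours. Each culture is a single library from a single line, the labels do not say whether CNOB came from a normal bone, and the tumours are pieces of tissue that hold cells other than tumour cells. The p-values below measure only the spread between these libraries, with 3 values from the cultures. The fit assumes the same spread in cultures and tumours, so that spread rests mostly on the 28 tumours.

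A piece of bone tumour contains tumour-associated macrophages, vessels with their endothelium and pericytes, lymphocytes and osteoclasts beside the malignant cells, and its extracellular matrix is mineralised. A cell culture lacks that tissue, and genes of sterol synthesis and amino acid metabolism are known to respond to the supply of lipids and amino acids. Osteoblasts secrete collagen I and non-collagenous bone proteins such as bone sialoprotein and osteopontin as they mature, and this programme depends on the transcription factor SP7.

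Values are FPKM, mapped fragments scaled to transcript length and library total, tested as log2(FPKM + 1) with limma over 15122 rows that reached 1 FPKM in at least 2 of the libraries used. A fold change given here is a difference on that log2 scale, which understates the change of low genes, and a gene was called at an adjusted p below 0.05. CNOB stood apart from all other libraries in its totals. Its FPKM values summed to 1418308, against 545129 in OSCA.8, 573991 in OSCA.78 and 479053 to 837067 in the tumour libraries, and its upper quartile over genes above 0 was 33.8 FPKM, against 21.9, 23.8 and 19.6 to 23.5. Its 10 most abundant rows took 18.9% of its sum, within the tumours' 7.14% to 39.1%, and they included TAGLN, S100A6, TPT1 and IGFBP2. Read depth per library is unknown from these files. Some genes that every cell uses, such as GAPDH and PGK1, are listed at or near 0 in all libraries, so a value of 0 is described only as listed at 0.

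The cultures differed from the tumours in 4552 rows, 2529 higher and 2023 lower, which are 16.7% and 13.4% of the rows tested. In 339 rows the gene was called and all 3 cultures lay above every tumour (2.24% of rows tested), and in 653 all 3 lay below every tumour (4.32%). These are called shared rises and shared falls below. The median log2 fold change was 1.56 over the shared rises, with single genes between 0.589 and 5.69, and -1.66 over the shared falls, between -7.65 and -0.454, beside -0.0251 over all rows tested. In 126 rows the gene was under 1 FPKM in all 3 cultures and at least 1 FPKM in every tumour. The opposite was seen in 1 row, KIF1A, a neuronal kinesin, named here after its values were seen. Of the 2529 rows called higher, 2222 had all 3 cultures above the tumour median, as 1866 of the 2023 called lower had all 3 below it. CNOB was the highest of the 3 cultures in 232 of the 339 shared rises, OSCA.78 in 91 and OSCA.8 in 16. The lowest culture in the shared falls was OSCA.78 in 256, OSCA.8 in 210 and CNOB in 187. Scaled to the upper quartile, which moved the median log2 fold change of all rows to -0.21, the calls were 1553 higher and 2827 lower and the shared rises 211. Without CNOB 1292 rows were called higher and 1214 lower, and without OSCA.78 1716 and 1030.

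Myeloid and endothelial genes took most places among the 15 largest shared falls. CD74, the invariant chain of MHC class II, measured 0.234 FPKM in OSCA.8, 0.497 in OSCA.78 and 0.477 in CNOB, against 42.1 to 759.8 FPKM in the tumours (median 215). TYROBP, a signalling adaptor of myeloid cells, measured 0.177 FPKM in OSCA.8, 0 as listed in OSCA.78 and 0.12 in CNOB, against 8.73 to 308 (median 90.9) in tumours. C1QC, a chain of complement C1q made by macrophages, measured 0.133 FPKM in OSCA.8, 0.142 in OSCA.78 and 0.102 in CNOB, against 18.9 to 373 (median 73). For all 3 genes every culture was under 1 FPKM and the lowest tumour was far above it, with log2 fold changes of -7.34 ± 0.59, -6.39 ± 0.63 and -6.08 ± 0.58 (SE, limma adjusted p = 2.9e-10, 1.4e-08 and 8.7e-09). Among macrophage genes 14 of 15 tested members were called lower and 13 lay below every tumour, with a list median of -4.75. CD68, a lysosomal protein of macrophages, was called lower without being shared, since CNOB held 23.3 FPKM, inside the tumours' 6.64 to 672, while OSCA.8 and OSCA.78 held 0.766 and 1.56. The 1 member not called was MARCO, a scavenger receptor, at 0.031 FPKM in OSCA.8, listed at 0 in the other cultures, and at a tumour median of 0.616. The summed FPKM of the list was 2.4 in OSCA.8, 3.43 in OSCA.78 and 26.2 in CNOB, against 151 to 2471 in tumours. LAPTM5, LYZ, CTSS, BPI, C1QA and C1QB, all expressed by myeloid cells, also stood among the 15 largest shared falls, with log2 fold changes of -5.98, -5.48, -5.41, -5.59, -5.72 and -5.33. In bulk RNA, fewer cells of a type and less RNA per cell cannot be told apart. The macrophage count lay between 13 and 14 under every alternative except the 4-library replicate block, including each leave-one-out.

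**Figure D1:**
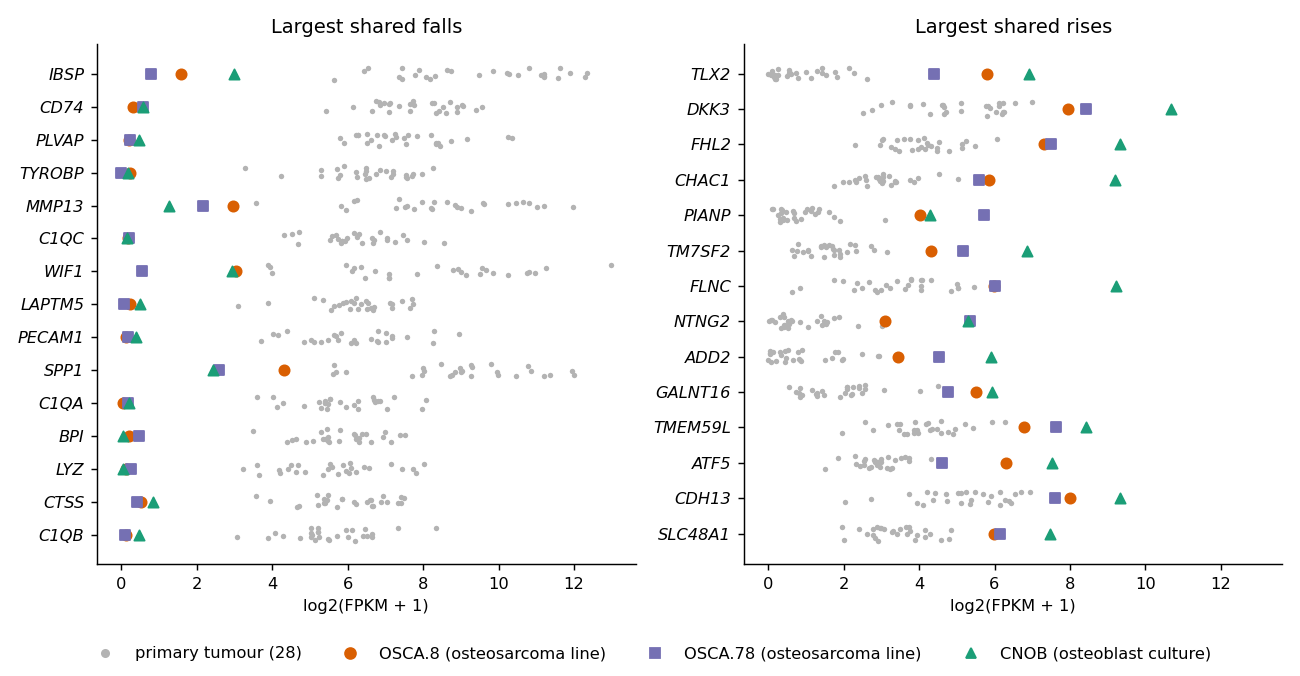
Expression as log2(FPKM + 1) on the horizontal axis for the 15 largest shared falls (left) and 14 of the 15 largest shared rises (right) by log2 fold change among genes with a symbol; each grey point is 1 of 28 primary tumours, with vertical scatter only to separate the points, and each coloured symbol is 1 culture. No culture overlaps the tumours in these genes, because they were chosen so; the 3 cultures lie close together near 0 for the myeloid and endothelial falls, and are spread wider in the rises, where CNOB is often the highest.

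Endothelial genes were lower too, with 9 of 12 tested members called lower, 8 of them below every tumour, and a list median of -3.24. PLVAP, a protein of the endothelial diaphragm, measured 0.145 FPKM in OSCA.8, 0.165 in OSCA.78 and 0.38 in CNOB, against 54.6 to 1320.2 FPKM in the tumours (median 153). PECAM1, an adhesion molecule of endothelial junctions, measured 0.0815 FPKM in OSCA.8, 0.125 in OSCA.78 and 0.312 in CNOB, against 11.9 to 489.9 (median 68.9). CDH5, the cadherin of those junctions, measured 0.0748 FPKM in OSCA.8, 0.0685 in OSCA.78 and 0.284 in CNOB, against 5.36 to 280.3 (median 29.8). The cultures did not overlap the tumours in any of them, and the log2 fold changes were -7.21 ± 0.66, -5.91 ± 0.74 and -4.74 ± 0.70 (SE, limma adjusted p = 5.8e-09, 1.2e-06 and 1.3e-05). FLT1, a VEGF receptor (-0.62, limma adjusted p = 0.436), EGFL7, a secreted endothelial factor (0.35, 0.572), and SOX17, an endothelial transcription factor (-0.53, 0.545), were not called, and each was at or above 2.57 FPKM in both lines. The count of 9 was the same in every leave-one-out and under every scaling.

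Pericyte and smooth muscle genes held some that were low in all cultures and others that were high in CNOB alone. RGS5, a marker of pericytes, measured 0.0325 FPKM in OSCA.8, 0.0345 in OSCA.78 and 0.0663 in CNOB, against 7.55 to 115 FPKM in the tumours (median 29.7), a log2 fold change of -4.91 ± 0.65 (SE, limma adjusted p = 2.9e-06). ABCC9 and KCNJ8, which together form a potassium channel of pericytes, changed by -2.62 ± 0.62 and -2.26 ± 0.67 (SE, limma adjusted p = 0.00208 and 0.0105), the latter -2.05, adjusted p = 0.0798 without CNOB. These were the 3 of 9 tested members called lower, with 0 called higher. KCNMB1, a channel subunit of smooth muscle, and CSPG4, a proteoglycan of pericytes, were inside the tumour range or below it in both lines and above every tumour in CNOB, at 211 and 269 FPKM. For these, the difference between CNOB and the lines was 7.49 ± 1.44 and 4.11 ± 1.32 (SE, limma adjusted p = 0.00119 and 0.0428), the latter 3.22, adjusted p = 0.237 without OSCA.8.

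T cell genes were low in the tumours as well, and the cultures were called lower in 3 of 12 tested members. CD2, an adhesion receptor of T cells, measured 0 FPKM as listed in OSCA.8, 0.00902 in OSCA.78 and 0.0173 in CNOB, against 0.402 to 11.1 FPKM in the tumours (median 2.49), with no overlap (-1.88 ± 0.54 SE, limma adjusted p = 0.00874). CD8B, a chain of the CD8 co-receptor, and ZAP70, a kinase of the T cell receptor, were called at -1.40 and -1.17 (limma adjusted p = 0.041 and 0.0451). The call of CD8B ended without OSCA.8 (0.103) and without OSCA.78 (0.246), and that of ZAP70 in each leave-one-out (0.111, 0.134 and 0.124 without OSCA.8, OSCA.78 and CNOB). With a pseudocount of 0.1 FPKM in place of 1 FPKM, 10 of the 12 were called lower.

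Genes of B and plasma cells (4 tested), mast cells (4), erythroid cells (3), osteoclasts (6) and skeletal muscle (8) held 0 called members by limma. With a pseudocount of 0.1 FPKM, 3 osteoclast, 2 B and plasma cell and 1 muscle genes were called lower, and 0 of the mast and erythroid cells. At 1 FPKM, unadjusted p was below 0.05 in 3 osteoclast and 2 muscle genes by limma, and in 3 osteoclast, 1 muscle and 1 B cell genes by the exact permutation test. The lowest adjusted p in them were 0.137 for POU2AF1, 0.305 for MS4A2, 0.587 for HBM, 0.0563 for ATP6V0D2 and 0.0661 for TNNI2. ATP6V0D2, a proton pump subunit of osteoclasts, still measured only 0.00763 FPKM in OSCA.8, 0 as listed in OSCA.78 and 0.0782 in CNOB, against 0.0381 to 55.5 FPKM in the tumours (median 8.14). OSCAR, an osteoclast receptor, measured 0.268 FPKM in OSCA.8, 1.52 in OSCA.78 and 0 as listed in CNOB, against 0 as listed to 63.3 (median 8.35). Both genes reached low values in some tumours, so the groups overlapped. Of the 5 Schwann cell genes tested, ERBB3, a neuregulin receptor, was called higher (1.70 ± 0.40 SE, limma adjusted p = 0.00174), and held 5.8 FPKM in OSCA.8, 16.5 in OSCA.78 and 0.0896 in CNOB, against 0.013 to 2.14 (median 0.434). CNOB differed from the lines by -3.32 ± 0.56 (SE, limma adjusted p = 0.00031). The call ended without OSCA.78 (0.81, adjusted p = 0.151), whereas without CNOB the value was 2.81. Of 3 adipocyte genes, CFD, complement factor D, was called lower (-2.72 ± 1.02 SE, limma adjusted p = 0.0427), which ended in each leave-one-out (adjusted p = 0.154, 0.187 and 0.0501 without OSCA.8, OSCA.78 and CNOB). LEP, the adipokine leptin, was called higher (1.15 ± 0.38 SE, limma adjusted p = 0.0236) with 15.9 FPKM in CNOB and 0 as listed in both lines, against 0.00628 to 1.24 (median 0.102), and without CNOB its log2 fold change was -0.21.

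Of 11 osteoblast and bone matrix genes tested, 5 were called lower in the cultures, and CNOB lay below every tumour in 3, OSCA.8 in 4 and OSCA.78 in 6. IBSP, bone sialoprotein, had the largest shared fall of all genes with a symbol: it measured 1.96 FPKM in OSCA.8, 0.717 in OSCA.78 and 6.95 in CNOB, against 48.6 to 5171 FPKM in the tumours (median 818). SPP1, osteopontin, measured 19 FPKM in OSCA.8, 5.01 in OSCA.78 and 4.38 in CNOB, against 47.4 to 4096 (median 517). In both genes the 3 cultures lay below every tumour, with log2 fold changes of -7.65 ± 1.12 and -5.91 ± 1.02 (SE, limma adjusted p = 1.2e-05 and 9.9e-05). OMD, a small proteoglycan of bone, measured 12 FPKM in OSCA.8, 0.709 in OSCA.78 and 12.2 in CNOB, against 7.82 to 1225 (median 189), and was called at -4.60 ± 0.91 (SE, limma adjusted p = 0.00039). The lowest tumour lay below OSCA.8 and CNOB. SP7, the osteoblast transcription factor, was called at -3.13 ± 0.70 (SE, limma adjusted p = 0.00129). Without OSCA.8 the value of SP7 was -2.01, adjusted p = 0.0473. SP7 was low in OSCA.8 (0.201 FPKM) and OSCA.78 (5.08), both below every tumour, and inside the tumour range in CNOB (24.7, tumours 7.72 to 128). No member was called higher, the list had a median of -2.4 and 5 to 6 were called lower under every alternative except the replicate block. The members not called included COL1A2, a chain of collagen I, at 3044 FPKM in OSCA.8, 2032 in OSCA.78 and 5530.2 in CNOB, against 2869.7 to 21005 (median 6761). Another was SPARC, osteonectin, at 3105 FPKM in OSCA.8, 1431 in OSCA.78 and 10515 in CNOB, against 2194 to 16729 (median 5772). COL1A2 was called lower after quantile normalisation (-1.53, limma adjusted p = 0.0132) and under upper quartile scaling (-1.46, limma adjusted p = 0.0317). Of the defining markers of osteoblasts, CNOB thus held COL1A2, SPARC and SP7 inside the tumour range of unscaled FPKM. IBSP and SPP1 lay below every tumour in CNOB, and RUNX2, ALPL and BGLAP are not reported here. DMP1, a protein of osteocytes, had 0.398, 0.0447 and 0.429 FPKM in OSCA.8, OSCA.78 and CNOB, against 0.306 to 762 (median 29). Its call (-4.48 ± 1.57 SE, limma adjusted p = 0.0306) ended in each leave-one-out (adjusted p = 0.068, 0.117 and 0.105). TNFRSF11B, osteoprotegerin, was the other called member of 7 osteocyte genes (-2.53 ± 0.81 SE, limma adjusted p = 0.0181), and it ended without OSCA.8 or CNOB (-2.48, adjusted p = 0.053, and -2.27, adjusted p = 0.113). ACAN, aggrecan of cartilage, was the 1 called of 7 cartilage genes, at -4.33 ± 1.0 (SE, limma adjusted p = 0.00166).

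Secreted matrix proteins, proteases and signalling inhibitors gave single large shifts within lists of which most members were not called. Matrix proteases and their inhibitors were called higher in 1 of 19 (5.26%) and lower in 3 (15.8%). The shares called higher and lower were 5.88% and 11.8% for the fibrillar and interstitial matrix list. They were 11.1% in each direction for secreted WNT antagonists, and 16.7% and 13.4% over all rows tested. MMP13, a collagenase of bone and cartilage, measured 6.77 FPKM in OSCA.8, 3.46 in OSCA.78 and 1.4 in CNOB, against 10.8 to 3991 FPKM in the tumours (median 353), a shared fall of -6.38 ± 1.09 (SE, limma adjusted p = 8.7e-05). FAP, a membrane protease of activated fibroblasts, measured 9.12 FPKM in OSCA.8, 0.334 in OSCA.78 and 1.21 in CNOB, against 9.98 to 90.9 (median 32.8), also a shared fall (-3.36 ± 0.50 SE, limma adjusted p = 1.3e-05). POSTN, periostin, measured 19.7 FPKM in OSCA.8, 1.34 in OSCA.78 and 2.47 in CNOB, against 7.82 to 4432 (median 295), and overlapped the tumours only through OSCA.8 (-5.77 ± 1.3 SE, limma adjusted p = 0.0014). The fibrillar and interstitial matrix list as a whole stood at a median of 0.04, with 1 of 17 tested members called higher and 2 lower: FBN1, fibrillin, at 1.60, POSTN, and FBLN1, fibulin. The calls of FBN1 and FBLN1 ended without CNOB (1.09, adjusted p = 0.303, and -1.82, adjusted p = 0.0675), and that of FBN1 without OSCA.78 too (1.72, adjusted p = 0.0929). The opposite direction was seen for DKK3, a secreted glycoprotein of the Dickkopf family, at 247 FPKM in OSCA.8, 344 in OSCA.78 and 1640.0 in CNOB, against 4.67 to 126 FPKM in the tumours (median 33.7). WIF1, a secreted inhibitor that binds WNT ligands, measured 7.29 FPKM in OSCA.8, 0.45 in OSCA.78 and 6.64 in CNOB, against 13.7 to 8116 (median 383). DKK3 was a shared rise (3.99 ± 0.73 SE, limma adjusted p = 0.00016) and WIF1 a shared fall (-5.99 ± 1.35 SE, limma adjusted p = 0.00139), and they were the only called members among 9 secreted WNT antagonists.

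Binding proteins of insulin-like growth factor also moved in opposite directions. IGFBP2 measured 447 FPKM in OSCA.8, 4333 in OSCA.78 and 22555 in CNOB, against 1.54 to 587 FPKM in the tumours (median 77.7). OSCA.8 lay inside the tumour range and the other cultures far above it (5.87 ± 1.2 SE, limma adjusted p = 0.0006). IGFBP3, listed at 0 in CNOB and at 0.0491 and 0.0698 FPKM in OSCA.8 and OSCA.78, ranged in tumours from 2.95 to 91 (median 12.6), a shared fall of -3.76 ± 0.63 (SE, limma adjusted p = 5.6e-05). The other 12 of 14 tested members of this list were not called. Among complement genes 6 of 9 were called lower, with a list median of -2.72. Without CNOB 3 were called and without OSCA.78 4. C1QTNF5, a C1q-related secreted protein, fell in the lines alone, at 0.269 FPKM in OSCA.8, 0.286 in OSCA.78 and 130.3 in CNOB, against 53.5 to 387 (median 158). CNOB lay 6.68 ± 0.76 (SE, limma adjusted p = 4.6e-07) above the lines. SERPING1, the inhibitor of C1, was called at -3.88 ± 0.96 (SE, limma adjusted p = 0.00325), ending without OSCA.78 (-2.98, adjusted p = 0.0672). C1R, a protease of C1, was called at -3.01 ± 0.88 (SE, limma adjusted p = 0.00994), ending without CNOB (-2.05, adjusted p = 0.173). Chemokine and interleukin genes were called lower in 5 of 12, of which IL18, an inflammatory cytokine, was a shared fall at -1.75 ± 0.37 (SE, limma adjusted p = 0.00073). The others were CXCL14, CCL14, IL16 and IL33, and the count was 3, 1 and 3 without OSCA.8, OSCA.78 and CNOB. Without OSCA.78 the calls of CXCL14, IL33 and CCL14 ended (adjusted p = 0.0628, 0.0538 and 0.112), without CNOB those of CXCL14 and IL33 (0.176 and 0.0578), and without OSCA.8 that of CCL14 (0.0854).

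Several of the 15 largest shared rises stand outside the gene lists. TLX2, a homeobox factor of the nervous system, measured 54.7 FPKM in OSCA.8, 20.2 in OSCA.78 and 119 in CNOB, against 0 as listed to 5.09 FPKM in the tumours (median 0.505). PIANP, a neuronal membrane protein, measured 15.3 FPKM in OSCA.8, 51.3 in OSCA.78 and 18.4 in CNOB, against 0.0638 to 7.48 (median 0.601). NTNG2, a netrin of the membrane-bound kind, measured 7.59 FPKM in OSCA.8, 40 in OSCA.78 and 38 in CNOB, against 0.0163 to 7.04 (median 0.492). Each was under 1 FPKM in the median tumour and at 7.59 FPKM or more in every culture, and the log2 fold changes were 4.84 ± 0.47, 3.81 ± 0.40 and 3.67 ± 0.47 (SE, limma adjusted p = 1e-08, 6.7e-08 and 1.4e-06). ADD2, an adducin of the membrane skeleton, showed the same pattern at 3.66 ± 0.54 (SE, limma adjusted p = 1.2e-05). FHL2, a LIM-domain protein of focal adhesions and the nucleus, measured 158 FPKM in OSCA.8, 179.7 in OSCA.78 and 645 in CNOB, against 3.97 to 65.4 FPKM in the tumours (median 16.1) (3.96 ± 0.51 SE, limma adjusted p = 1.6e-06). CDH13, a cadherin anchored by a lipid, measured 257 FPKM in OSCA.8, 192 in OSCA.78 and 636 in CNOB, against 3.13 to 122 (median 38.3) (3.14 ± 0.67 SE, limma adjusted p = 0.00087). GALNT16, an enzyme of O-glycosylation, SLC48A1, a haem transporter, and TMEM59L, a membrane protein, also stood among the 15 largest shared rises, at 3.49, 3.13 and 3.46.

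Targets of ATF4, the transcription factor of the amino acid response, rose together: 14 of 20 tested members were called higher, 0 lower, and 7 were shared rises, with a list median of 1.73 beside -0.0251 over all rows. CHAC1, which degrades glutathione, measured 56.7 FPKM in OSCA.8, 47.5 in OSCA.78 and 583 in CNOB, against 2.32 to 31.6 FPKM in the tumours (median 6.99). TRIB3, a pseudokinase that feeds back on ATF4, measured 58.4 FPKM in OSCA.8, 46.6 in OSCA.78 and 203 in CNOB, against 1.32 to 29.7 (median 8.76). ATF5, a factor of the same family, measured 78 FPKM in OSCA.8, 23.4 in OSCA.78 and 185 in CNOB, against 1.83 to 18.9 (median 6.45). Every culture exceeded every tumour in these 3 genes, CNOB being the highest in each, with log2 fold changes of 3.84 ± 0.51, 3.12 ± 0.54 and 3.23 ± 0.41 (SE, limma adjusted p = 2.9e-06, 9.7e-05 and 1.1e-06). ASNS, asparagine synthetase, measured 53.4 FPKM in OSCA.8, 96.7 in OSCA.78 and 97 in CNOB, against 1.98 to 41 FPKM in the tumours (median 11.1) (2.73 ± 0.55 SE, limma adjusted p = 0.00046). SHMT2, the mitochondrial enzyme that makes glycine from serine, measured 331 FPKM in OSCA.8, 385 in OSCA.78 and 1002 in CNOB, against 27.5 to 161 (median 76.6) (2.72 ± 0.37 SE, limma adjusted p = 3.9e-06). SLC7A5, a transporter of large neutral amino acids, measured 105 FPKM in OSCA.8, 179 in OSCA.78 and 197 in CNOB, against 6.68 to 58.5 (median 24.4) (2.71 ± 0.44 SE, limma adjusted p = 4.6e-05). These were shared rises as well, and OSCA.78 and CNOB held nearly the same level of ASNS and of SLC7A5. SESN2, a stress-induced inhibitor of growth signalling that also stands among the p53 targets, measured 10.1 FPKM in OSCA.8, 9.49 in OSCA.78 and 109 in CNOB, against 0.922 to 5.73 FPKM in the tumours (median 2.3), a shared rise of 2.79 ± 0.43 (SE, limma adjusted p = 1.9e-05). Without CNOB it was 1.68, adjusted p = 0.00284. ATF4 itself was called at 0.85 ± 0.29 (SE, limma adjusted p = 0.0273), with OSCA.8 and OSCA.78 inside the tumour range. That call ended without CNOB (0.44, adjusted p = 0.383), without OSCA.78 (0.98, adjusted p = 0.0533) and under quantile normalisation (0.48, adjusted p = 0.209) or upper quartile scaling (0.57, adjusted p = 0.111). The members not called were DDIT3, DDIT4, ALDH1L2, ATF3, CEBPB and STC2, with values between -0.06 and 1.21. CNOB lay above the lines for CHAC1, SESN2 and SLC1A5, a glutamine transporter, by 3.47, 3.35 and 3.21 (limma adjusted p = 0.00821, 0.00114 and 0.00222), all higher. After quantile normalisation 1 member of the list differed in this way, and the differences of CHAC1 and SLC1A5 were not called (2.22, adjusted p = 0.195, and 1.93, adjusted p = 0.132). The rise of SLC1A5 over the tumours, 1.64 ± 0.43 (SE, limma adjusted p = 0.00439), was 0.57, adjusted p = 0.343, without CNOB.

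Cholesterol metabolism genes were higher in the cultures, with 13 of 20 tested members called higher, 0 lower and 4 shared, and a list median of 1.45. DHCR7, which catalyses the last step to cholesterol, measured 63.9 FPKM in OSCA.8, 157 in OSCA.78 and 45.8 in CNOB, against 2.12 to 30.3 (median 9.67). TM7SF2, a sterol reductase, measured 18.9 FPKM in OSCA.8, 34.6 in OSCA.78 and 115 in CNOB, against 0.533 to 7.94 (median 2.15). The 3 cultures lay above every tumour in both, at log2 fold changes of 2.92 ± 0.46 and 3.80 ± 0.43 (SE, limma adjusted p = 2.5e-05 and 1.6e-07). MVD, an enzyme of the mevalonate pathway, was also a shared rise (1.64 ± 0.34 SE, limma adjusted p = 0.00058). For several other members the lines were high and CNOB lay inside the tumour range or below it. SQLE, squalene epoxidase, measured 124 FPKM in OSCA.8, 214 in OSCA.78 and 4.23 in CNOB, against 3.82 to 129 (median 35.2). CNOB lay inside the tumour range near its lower end, and differed from the lines by -4.97 ± 1.4 (SE, limma adjusted p = 0.0207), or -4.58, adjusted p = 0.0872, without OSCA.78. IDI1, INSIG1 and FDFT1 were likewise lower in CNOB than in the lines, by -3.49, -4.30 and -2.81 on the log2 scale, so that 6 of 20 members differed between CNOB and the lines, all in this direction. That number was 4 without OSCA.8, 1 without OSCA.78 and 2 after quantile normalisation. FDFT1, squalene synthase, was called higher in the cultures together (1.52 ± 0.45 SE, limma adjusted p = 0.011), ending without OSCA.8 and without OSCA.78 (adjusted p = 0.0801 and 0.237). The count of members called higher was 17 without CNOB, 5 without OSCA.78 and 9 without OSCA.8.

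Fatty acid synthesis genes were also higher, with 8 of 11 tested members called higher, 0 lower, 2 shared and a list median of 1.66. FASN, fatty acid synthase, measured 85.9 FPKM in OSCA.8, 218 in OSCA.78 and 109 in CNOB, against 5.53 to 73.8 FPKM in the tumours (median 34.4). FADS1, a fatty acid desaturase, measured 31.7 FPKM in OSCA.8, 112 in OSCA.78 and 43.9 in CNOB, against 3.58 to 28.6 (median 13.5). Both were shared rises, of 1.94 ± 0.48 and 2.05 ± 0.45 (SE, limma adjusted p = 0.00313 and 0.00105), and FASN was 1.55, adjusted p = 0.0576 without OSCA.78. FADS2, a second desaturase, and ELOVL6, an elongase, were called at 2.11 ± 0.44 and 2.01 ± 0.44 (SE, limma adjusted p = 0.00068 and 0.0011), with CNOB inside the tumour range. SCD, stearoyl-CoA desaturase, was at 399 FPKM in OSCA.8, 460.2 in OSCA.78 and 17.8 in CNOB, against 21.2 to 221 (median 61.3). Both lines lay above every tumour and CNOB below every tumour, and CNOB differed from the lines by -4.52 ± 1.06 (SE, limma adjusted p = 0.00608). ACLY, ATP citrate lyase, likewise differed by -2.97 ± 0.60 (SE, limma adjusted p = 0.00183). Its call against the tumours (1.51 ± 0.39 SE, limma adjusted p = 0.00426) ended without either line (1.07, adjusted p = 0.0693, and 0.95, adjusted p = 0.132). The count called higher was 5 without OSCA.78, 6 without OSCA.8 and 9 without CNOB.

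**Figure D2:**
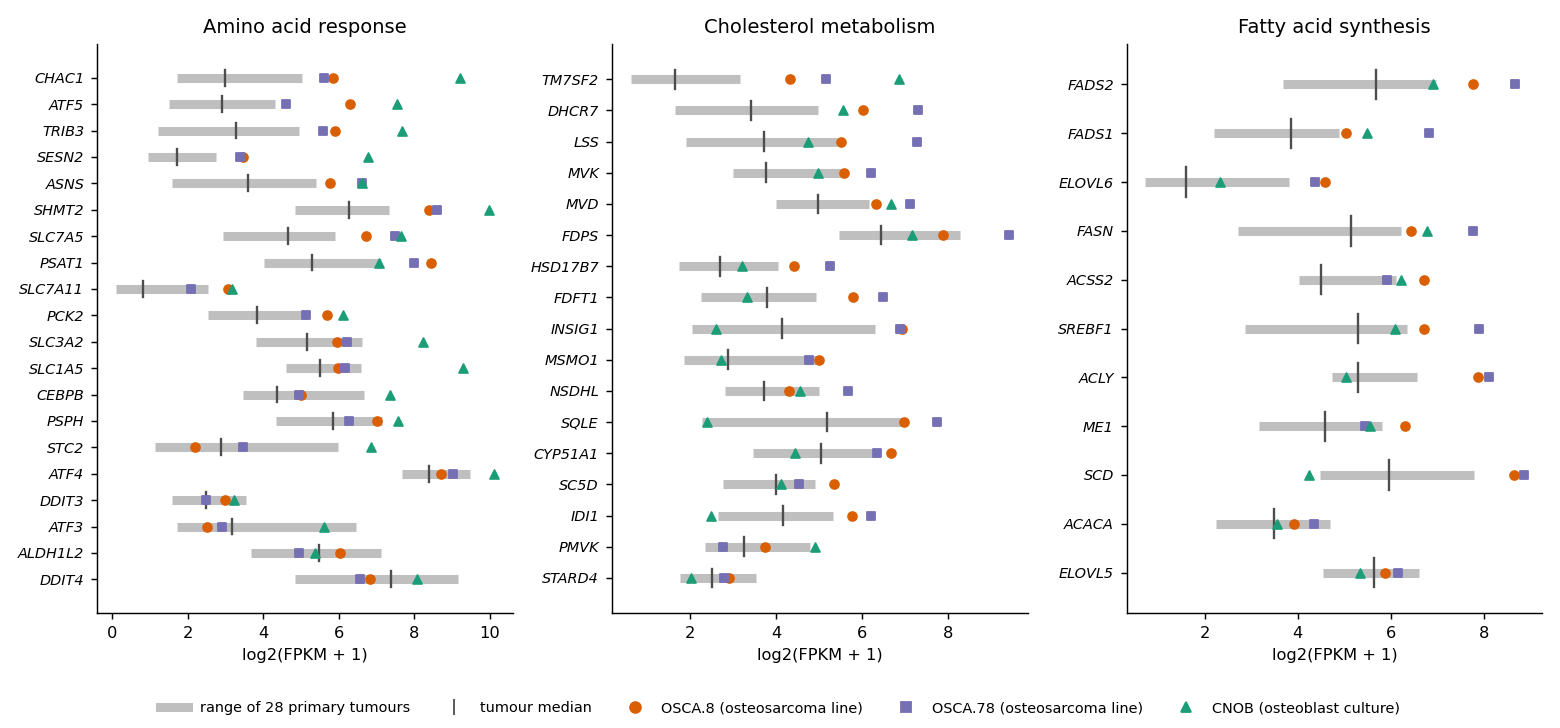
Expression as log2(FPKM + 1) for 20, 17 and 11 tested members of the amino acid response, cholesterol and fatty acid lists, ordered by log2 fold change of cultures against tumours; grey bars span the 28 primary tumours, the dark tick is their median, and symbols are the 3 cultures. In the amino acid panel CNOB lies above both lines for 18 of 20 genes. That also held for 18 of 20 immediate early and 11 of 14 lysosomal genes, but for 2 of 20 tested cholesterol and 0 of 11 fatty acid genes. Values are unscaled, and the upper quartile of CNOB was 33.8 FPKM against 21.9 in OSCA.8 and 23.8 in OSCA.78. In the cholesterol panel CNOB lies inside or below the grey bars for SQLE, IDI1 and INSIG1, with the lines near or beyond their upper ends.

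Antioxidant and pentose phosphate genes regulated by NRF2 were called higher in 7 of 10, 0 lower, with a median of 1.21 and no member that differed between CNOB and the lines. OSGIN1, an oxidative stress response gene, measured 12.5 FPKM in OSCA.8, 23.7 in OSCA.78 and 13.8 in CNOB, against 0.536 to 5.75 FPKM in the tumours (median 2.28), a shared rise of 2.42 ± 0.31 (SE, limma adjusted p = 1.6e-06). NQO1, a quinone reductase, measured 199 FPKM in OSCA.8, 96.1 in OSCA.78 and 1017 in CNOB, against 5.84 to 299.7 (median 26.9) (3.08 ± 0.66 SE, limma adjusted p = 0.00086), and OSCA.8 and OSCA.78 lay inside the tumour range. SLC7A11, the cystine transporter, which the amino acid list also holds, changed by 1.83 ± 0.38 (SE, limma adjusted p = 0.00061). GCLC, GCLM and SRXN1, further genes of glutathione and peroxide metabolism, were the members not called. The count was 4 after quantile normalisation.

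In several lists of protein synthesis, protein turnover and respiration more members were called higher than lower, with fewer calls without CNOB and a balance that depended on the scaling. Over all rows tested 16.7% were called higher and 13.4% lower. The shares called higher and lower were 52.6% and 10.5% for oxidative phosphorylation, and 45% and 5% for tRNA synthetases. They were 36% and 8% for the proteasome, and 26.1% and 0% for mitochondrial ribosomal proteins. Ribosome biogenesis genes had 26.3% and 15.8%, and cytosolic ribosomal proteins 12.5% and 0%. Of 19 oxidative phosphorylation genes 10 were called higher and 2 lower, and without CNOB 1 was called in each direction. Under upper quartile scaling 4 were higher and 2 lower, and after quantile normalisation 4 and 3. UQCRC1, a core subunit of respiratory complex III, was the shared rise among them, at 144 FPKM in OSCA.8, 211 in OSCA.78 and 324 in CNOB, against 33.8 to 115 FPKM in the tumours (median 72.9) (1.65 ± 0.28 SE, limma adjusted p = 5.9e-05). Cytosolic tRNA synthetases were called higher in 9 of 20 and lower in 1, with 3 higher and 2 lower without CNOB, 5 and 2 after quantile normalisation, and 6 and 3 under upper quartile scaling. SARS, the seryl-tRNA synthetase gene, measured 108 FPKM in OSCA.8, 144 in OSCA.78 and 173 in CNOB, against 33.4 to 98.3 (median 52.5). MARS, the methionyl one, measured 75.1 FPKM in OSCA.8, 82 in OSCA.78 and 117 in CNOB, against 15.6 to 59.7 (median 35.3). Both were shared rises (1.43 ± 0.25 SE, limma adjusted p = 9.1e-05, and 1.40 ± 0.28 SE, limma adjusted p = 0.00034). DARS, the aspartyl-tRNA synthetase gene, went the other way, at 13.7 FPKM in OSCA.8, 12.8 in OSCA.78 and 13.3 in CNOB, against 14.5 to 49 (median 27.3) (-0.97 ± 0.27 SE, limma adjusted p = 0.00672), a shared fall. Proteasome subunits were called higher in 9 of 25 and lower in 2, with 2 higher and 0 lower without CNOB and 5 and 0 without OSCA.78. The counts were 4 higher and 3 lower after quantile normalisation, and 3 higher and 4 lower under upper quartile scaling. PSMB5, a catalytic subunit, changed by 1.33 ± 0.27 (SE, limma adjusted p = 0.00056). Mitochondrial ribosomal proteins were called higher in 6 of 23 and lower in 0, with 0 in either direction without CNOB. After quantile normalisation 2 were higher and 0 lower, and under upper quartile scaling 2 higher and 3 lower. Ribosome biogenesis genes were called in both directions, 5 higher and 3 lower of 19, with 1 higher and 2 lower without CNOB and 2 and 1 without OSCA.78. After quantile normalisation 1 was higher and 3 lower, and under upper quartile scaling 1 and 5. NOP58, a nucleolar protein, was a shared fall at -1.56 ± 0.30 (SE, limma adjusted p = 0.0003). RPL8 was the 1 called of 8 cytosolic ribosomal proteins (0.92 ± 0.35 SE, limma adjusted p = 0.0447). Its call ended without CNOB (0.46, adjusted p = 0.465), without OSCA.78 (1.14, adjusted p = 0.0587) and under each of these scalings (0.65, adjusted p = 0.0503, and 0.64, adjusted p = 0.152).

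Of 17 circadian clock genes tested, the 2 shared rises were output genes. DBP, a clock-driven transcription factor, measured 66.6 FPKM in OSCA.8, 140.2 in OSCA.78 and 66.3 in CNOB, against 4.21 to 20.6 FPKM in the tumours (median 10.8). TEF, a factor of the same family, measured 23.9 FPKM in OSCA.8, 75.1 in OSCA.78 and 71.7 in CNOB, against 4.29 to 20.9 (median 10.2). The cultures lay above every tumour in both (2.84 ± 0.32 SE, limma adjusted p = 1.6e-07, and 2.27 ± 0.37 SE, limma adjusted p = 3.9e-05). HLF, a further member of this family, was called at 0.97 ± 0.27 (SE, limma adjusted p = 0.00702) with OSCA.78 alone above every tumour and the call ending without it (0.29, adjusted p = 0.438). NR1D1, a repressor of the clock, was called at 2.38 ± 0.61 (SE, limma adjusted p = 0.00396), which ended without CNOB (1.83, adjusted p = 0.0802). The core factors CLOCK and ARNTL and the PER genes were not called, and the list had 4 of 17 called higher and 2 lower. These shares, 23.5% and 11.8%, were near the 16.7% and 13.4% of all rows tested. The lower ones were CRY1 and CIART (-0.79 and -1.46), repressors of the clock, with both calls ending without OSCA.78 (-0.85, adjusted p = 0.107, and -1.02, adjusted p = 0.248), CRY1 also without CNOB (-0.46, adjusted p = 0.407) and CIART without OSCA.8 (-1.13, adjusted p = 0.158). The time of day at which samples were taken is not given in the labels.

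Genes of the actin cytoskeleton and of adhesion were raised mainly in CNOB. Of 16 actin and SRF target genes 7 were called higher and 0 lower, 1 was a shared rise, and 11 differed between CNOB and the lines, all higher in CNOB. This last number was 2 after quantile normalisation, 7 under upper quartile scaling and 6 without OSCA.8. Against the tumours 2 were called without CNOB, and 11 without OSCA.8. FLNC, filamin C, measured 62.8 FPKM in OSCA.8, 63.7 in OSCA.78 and 597 in CNOB, against 0.547 to 42.6 FPKM in the tumours (median 10.5), and was the shared rise (3.71 ± 0.74 SE, limma adjusted p = 0.00042). TAGLN, transgelin of contractile cells, measured 321 FPKM in OSCA.8, 1647 in OSCA.78 and 47085 in CNOB, against 37.6 to 1359.6 (median 230.4). MYL9, a myosin light chain, measured 161 FPKM in OSCA.8, 419.8 in OSCA.78 and 5660.4 in CNOB, against 48.3 to 268 (median 86.5). CNOB stood above every other library in both, while OSCA.8 lay inside the tumour range. Against the tumours TAGLN was called at 3.51 ± 0.98 (SE, limma adjusted p = 0.00732) and MYL9 at 2.90 ± 0.53 (SE, limma adjusted p = 0.00016). CNOB minus the lines was 6.01 ± 1.68 (SE, limma adjusted p = 0.02) for TAGLN, which ended after quantile normalisation (3.72, adjusted p = 0.28) and without OSCA.8 (4.84, adjusted p = 0.145), and 4.44 ± 0.75 (SE, limma adjusted p = 0.00031) for MYL9. Without CNOB the values against the tumours were 1.51, adjusted p = 0.32, and 1.42, adjusted p = 0.0277. CNOB lay above every tumour in all 16 members of this list and OSCA.78 in 5. ITGA3, an integrin chain that binds laminin, was a shared rise with nearly equal levels in the cultures, at 24.5 FPKM in OSCA.8, 27.8 in OSCA.78 and 24.7 in CNOB, against 0.655 to 13.9 FPKM in the tumours (median 2.49) (2.68 ± 0.48 SE, limma adjusted p = 0.00012). AXL, a receptor tyrosine kinase listed with the YAP and TEAD targets, was also a shared rise with similar levels, at 64.7 FPKM in OSCA.8, 70.1 in OSCA.78 and 83.4 in CNOB, against 1.06 to 29.5 (median 10.7) (2.64 ± 0.50 SE, limma adjusted p = 0.00023). Integrin and focal adhesion genes were called higher in 6 of 15 and lower in 1, with 1 higher without CNOB, 4 without OSCA.78, 2 after quantile normalisation and 3 under upper quartile scaling. YAP and TEAD targets were called higher in 4 of 12 and lower in 1, with 1 higher without CNOB. Beside AXL, they were CYR61, ANKRD1 and TEAD1, and the member called lower was NT5E, an ecto-nucleotidase (-2.54 ± 0.64 SE), ending without CNOB (-1.76, adjusted p = 0.104).

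The osteoblast culture was then compared with the lines, in a fit that assumes the lone culture to vary like the other groups. CNOB was higher than the lines in 954 rows (6.31% of rows tested) and lower in 517 (3.42%). Among the 339 shared rises 34 differed between CNOB and the lines, all higher in CNOB, and among the 653 shared falls 1 differed, lower in CNOB. The choice of shared rows, with all 3 cultures beyond every tumour, limits beforehand how CNOB and the lines can differ in them. In 44 rows CNOB and the lines were each called against the tumours in opposite directions, with CNOB the higher in 28 and the lower in 16. Mitosis genes differed most as a list: 18 of 20 were lower in CNOB than in the lines, and against the tumours the 3 cultures together were called lower in 2 and higher in 0. MKI67, the proliferation marker Ki-67, measured 21.2 FPKM in OSCA.8, 86.8 in OSCA.78 and 0.339 in CNOB, against 1.3 to 34.6 FPKM in the tumours (median 11.2). CDK1, the kinase that drives entry into mitosis, measured 78.2 FPKM in OSCA.8, 39.8 in OSCA.78 and 2.73 in CNOB, against 16.4 to 196 (median 86.4). CNOB lay below every tumour in both, and the lines lay inside the tumour range apart from OSCA.78 in MKI67, which lay above it. CNOB differed from the lines by -5.04 ± 1.19 and -3.93 ± 0.99 (SE, limma adjusted p = 0.00644 and 0.00975). The fall of CDK1 and of the kinesin KIF11 in the 3 cultures together (-1.76 ± 0.59 SE, limma adjusted p = 0.024, and -1.61 ± 0.57 SE, limma adjusted p = 0.0306) ended without CNOB (-0.45, adjusted p = 0.637, and -0.39, adjusted p = 0.682). DNA replication genes were lower in CNOB than in the lines in 15 of 23, and 0 of them were called against the tumours by limma, with 1 at an unadjusted p below 0.05 and 0 by the exact permutation test. The number lower in CNOB was 12 and 11 for mitosis, and 10 and 6 for DNA replication, without OSCA.8 and OSCA.78, and 9 and 5 after quantile normalisation. The difference in MKI67 was -4.05, adjusted p = 0.0675 without OSCA.78, and that in CDK1 -3.45, adjusted p = 0.0718 without OSCA.8.

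Interferon-induced genes also differed, 10 of 22 being lower in CNOB than in the lines, with 13 without OSCA.8, 2 without OSCA.78 and 6 after quantile normalisation. ISG15, an interferon-induced modifier protein, measured 343 FPKM in OSCA.8, 1492 in OSCA.78 and 1.27 in CNOB, against 3.15 to 143 FPKM in the tumours (median 13.4). Both lines stood above every tumour and CNOB below every tumour, the difference of CNOB from the lines being -8.30 ± 1.82 (SE, limma adjusted p = 0.00393). Against the tumours OAS1 and IRF9 were called higher, IFIT2 was a shared fall (-1.39 ± 0.51 SE, limma adjusted p = 0.0356), and without CNOB 9 were higher and 0 lower. The call of OAS1 ended without OSCA.78 (0.37, adjusted p = 0.684), where 0 members were called higher. The calls of IFIT2 and IRF9 ended without OSCA.78 (-1.44, adjusted p = 0.101, and 0.76, adjusted p = 0.193) and without CNOB (-1.30, adjusted p = 0.148, and 1.06, adjusted p = 0.0782), and that of IFIT2 without OSCA.8 as well (-1.43, adjusted p = 0.0729).

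**Figure D3:**
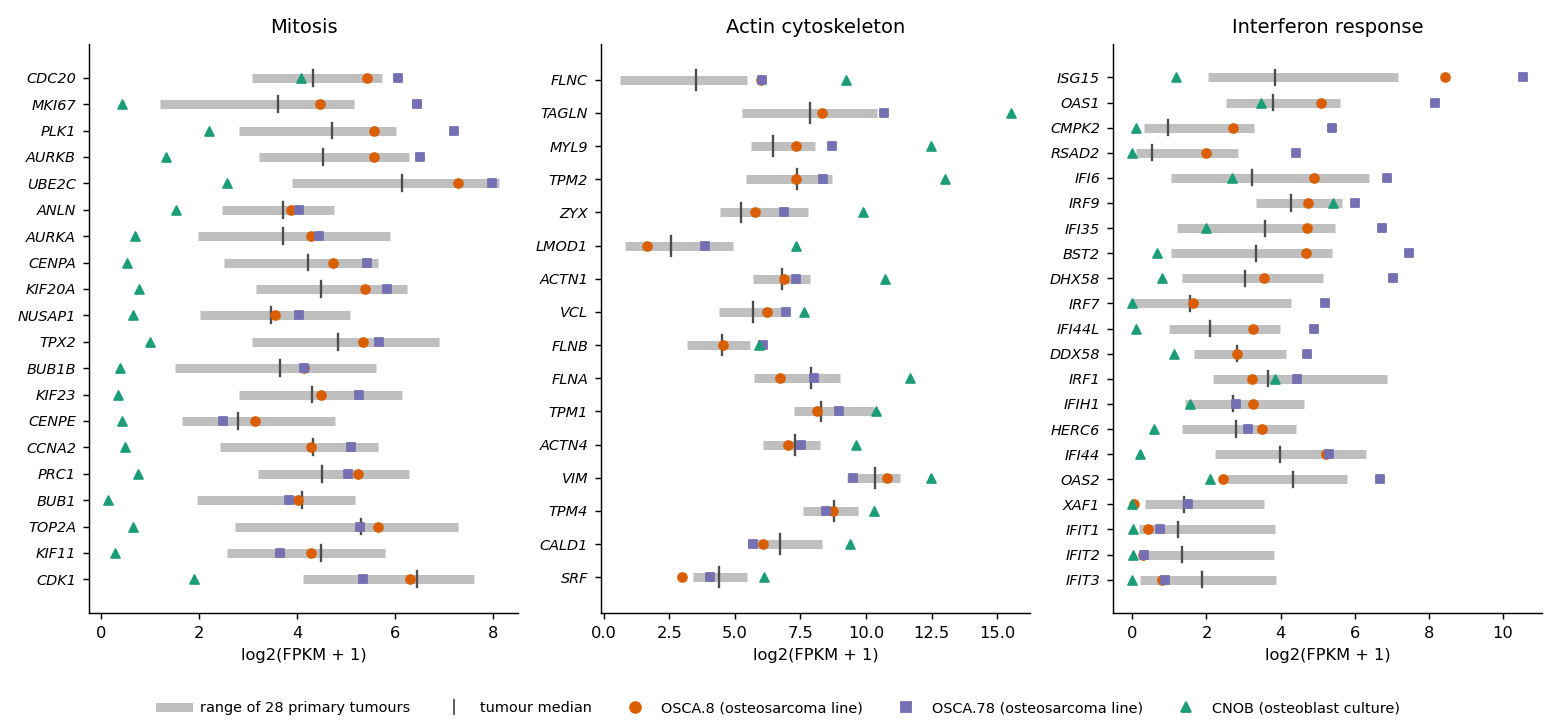
Expression as log2(FPKM + 1) for 20, 16 and 21 tested members of the mitosis, actin cytoskeleton and interferon lists, ordered by log2 fold change; grey bars span the 28 primary tumours, dark ticks are their medians, and symbols are the 3 cultures. CNOB lies below the grey bars for 19 of 20 mitosis genes and above them for all 16 actin genes, and OSCA.78 lies above the bars for 13 of 21 interferon genes.

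The remaining lists held few called members. Hypoxia genes were called lower in 2 of 8, and the cultures were split. The mean log2(FPKM + 1) of the list was 4.04 in OSCA.8 and 3.7 in OSCA.78, below the lowest tumour (4.69). In CNOB it was 6.35, above the tumour median of 5.54 and inside the tumour range, which reached 7.49. CNOB differed from the lines in 1 of the 8, where it was higher. KDM3A, a histone demethylase, was a shared fall (-1.50 ± 0.29 SE, limma adjusted p = 0.00026). ANGPTL4, a regulator of lipases, was called at -2.22 ± 0.58 (SE, limma adjusted p = 0.00459), which ended without OSCA.8 (-1.56, adjusted p = 0.0746). Steroid response genes were called lower in 2 of 8. ZBTB16, a glucocorticoid-induced factor, was a shared fall at 0.0731 FPKM in OSCA.8, 0.104 in OSCA.78 and 0 as listed in CNOB, against 0.4 to 11.8 (median 3.36) (-2.14 ± 0.51 SE, limma adjusted p = 0.00231). FKBP5, a chaperone of steroid receptors, was called at -1.93 ± 0.52 (SE, limma adjusted p = 0.00584), ending without CNOB (-1.05, adjusted p = 0.212). Among p53 targets 3 of 15 were called higher, SESN2, FDXR and DDB2, the last ending in each leave-one-out (adjusted p = 0.0589, 0.144 and 0.0959 without OSCA.8, OSCA.78 and CNOB). Glycolysis genes were called higher in 2 of 10 (ALDOC and PFKFB4), immediate early genes in 1 of 20 (CYR61), chaperones in 1 of 23 (BAG3), lysosomal genes in 1 of 14 (GAA) and nucleotide synthesis genes in 1 of 15 (IMPDH2, a shared rise), with 0 lower in each. Basement membrane genes were called lower in 1 of 12 (COL18A1). Without CNOB the calls of GAA, IMPDH2, ALDOC, PFKFB4, CYR61 and COL18A1 ended (adjusted p = 0.432, 0.0898, 0.0973, 0.0604, 0.592 and 0.188), and without OSCA.78 those of BAG3 and PFKFB4 (0.0631 and 0.213). The shares called were 5% for immediate early genes, 4.35% for chaperones, 7.14% for lysosomal genes and 6.67% for nucleotide synthesis genes, against 16.7% of all rows called higher, and 8.33% for basement membrane genes, against 13.4% called lower. By the same measures, 20% of p53 targets and of glycolysis genes were called higher. For hypoxia and for steroid response genes 25% were called lower. Genes of senescence and growth arrest (7 tested) had 0 called by limma, and 0 at an unadjusted p below 0.05 by limma or by the exact permutation test. Of these 7, CNOB was higher than the lines in 1 and lower in 2, against 6.31% and 3.42% of all rows. CNOB lay below every tumour in 4 and above every tumour in 1. OSCA.8 lay below every tumour in 0 and OSCA.78 in 1.

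**Figure D4:**
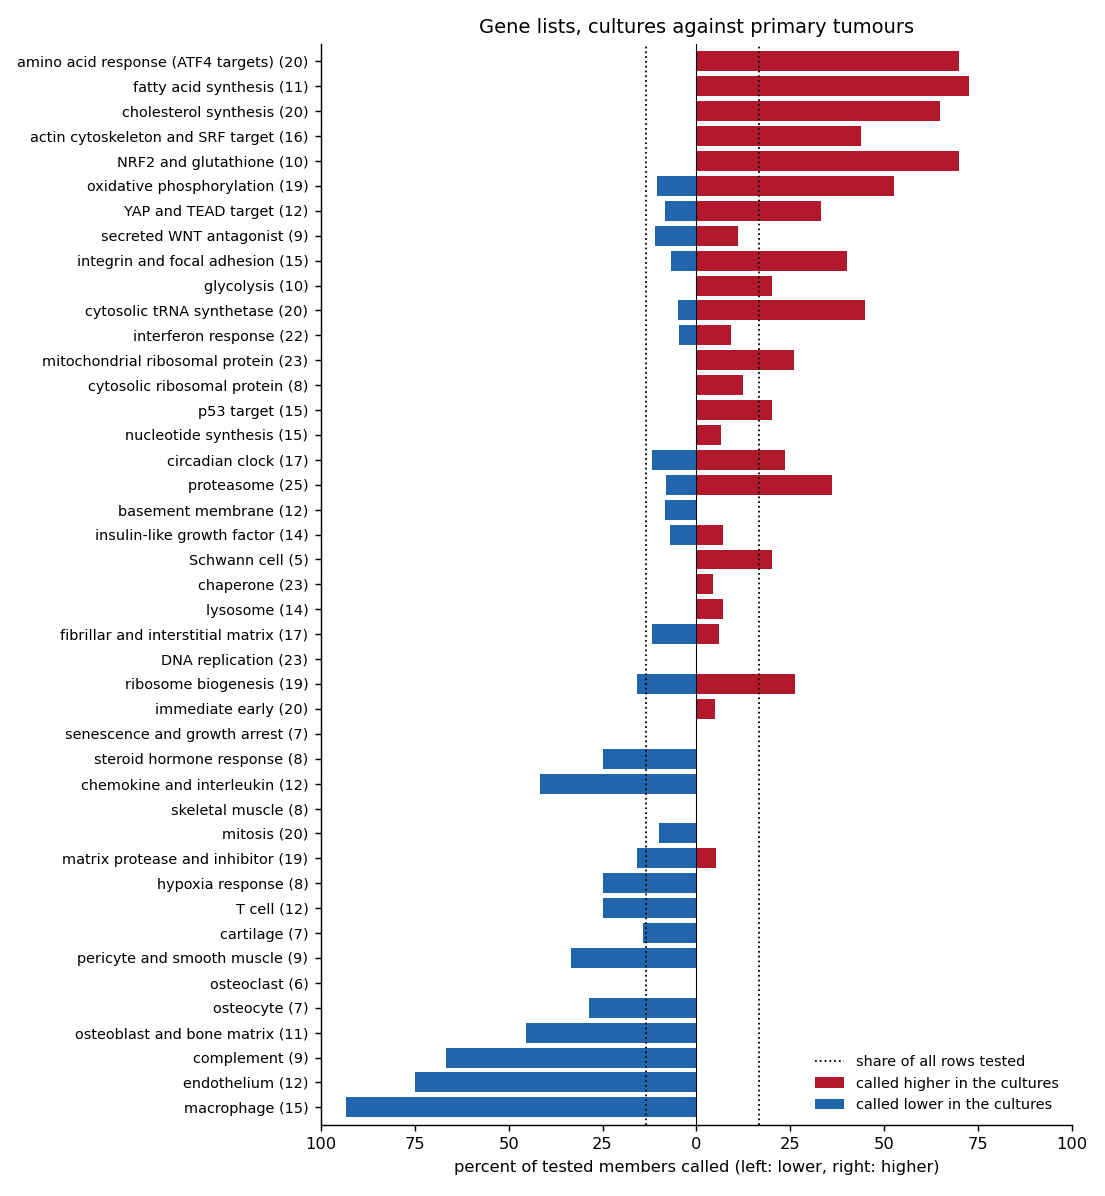
Share of the tested members of each gene list that were called higher (red, right) or lower (blue, left) in the 3 cultures against 28 primary tumours, for lists with at least 5 tested members, whose number stands in brackets, ordered by median log2 fold change; dotted lines mark the shares of all 15122 rows, 16.7% higher and 13.4% lower. The amino acid, lipid and NRF2 lists reach 65% or more called higher with none lower, and the macrophage and endothelial lists 93.3% and 75% called lower with none higher.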

How the data were processed

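RNA sequencing of 34 canine libraries was analysed from 1 table of gene-level FPKM values that the authors deposited. Per the submitters' processing notes FastQC 0.11.2, TopHat2 2.0.13, Cufflinks 2.2.1 and the build canFam3 were used, and per the labels' protocols libraries came from total RNA with a TruSeq RNA v2 kit. How strand, multi-mapping reads and overlapping genes were counted is not stated in the labels or notes, so values of near-identical or overlapping genes are uncertain. FPKM values are relative to each library's own total, and CNOB's sum was 1418308. Groups came from the labels, and p-values measure only the spread between libraries, which may be technical. DOS.46 and DOS.46.2, and DOS.100 and DOS.32, whose deviations from the tumour mean correlated at r = 0.73 and 0.84 over genes (next pairs 0.67 and 0.47, kept apart), entered as their mean log2 values, once each. The 1 metastasis was left out of the fit. Rows reaching 1 FPKM in 2 or more libraries were tested as log2(FPKM + 1) with limma 3.58.1 in R 4.3.3 (robust, with a mean trend, Benjamini-Hochberg adjustment over all 15122 rows, threshold 0.05); no count test fits FPKM. Tables were made with Python 3.11.15, numpy 2.4.6, pandas 2.3.3, scipy 1.17.1 and matplotlib 3.10.9, and the fit was tested on simulated data. The 47 gene lists, the members and the tests were chosen with earlier results of these data known. Named genes are the 15 largest shared rises and falls, the 3 largest called members of each list (2 by p where none was called), and the 8 largest differences of CNOB from the lines in each direction; other genes named were chosen after their values were seen. Symbols of 10903 of 11805 tested rows were found in RefSeq's table for UU_Cfam_GSD_1.0, used for names only. Some members counted in the lists are not reported here by name. Alternatives changed the pseudocount, filter, scaling, limma options, tumour units, cultures and pairing, and an exact two-sided permutation test over samples was run for single genes.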

Additional observations from a re-analysis of the deposited data

Results flagged for a closer look

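For the genes below CNOB and the osteosarcoma lines were each called against the tumours, at an adjusted p below 0.05, in opposite directions. The difference between them, in log2 units, was tested in the fit with 3 groups, in which the lone CNOB library is assumed to vary like the others. They are the genes described here in which both sides were called, out of 44 such rows. NDUFA4L2, a mitochondrial protein induced by hypoxia, measured 2.78 FPKM in OSCA.8, 0.307 in OSCA.78 and 4064 in CNOB, against 10.1 to 1869 (median 159) in the tumours, and CNOB minus the lines was 10.84 ± 1.86 (SE, limma adjusted p = 0.00039). FXYD1, a regulator of the sodium pump, measured 0.383 FPKM in OSCA.8, 0.304 in OSCA.78 and 768 in CNOB, against 37 to 329 (median 121) in the tumours, and CNOB minus the lines was 9.16 ± 0.93 (SE, limma adjusted p = 5.1e-08). EFEMP2, a fibulin of elastic fibres, measured 0.265 FPKM in OSCA.8, 0.673 in OSCA.78 and 441 in CNOB, against 26.6 to 333 (median 96.8) in the tumours, and CNOB minus the lines was 8.25 ± 0.99 (SE, limma adjusted p = 1.3e-06). CNOB lay above every tumour in these 3 genes and both lines below every tumour. WFDC1, a secreted protein of the whey acidic protein family, measured 0.0275 FPKM in OSCA.8, 0.118 in OSCA.78 and 293 in CNOB, against 2.26 to 79.2 (median 35) in the tumours, and CNOB minus the lines was 8.10 ± 1.23 (SE, limma adjusted p = 7.3e-05). FAM26E, a membrane protein, measured 0.976 FPKM in OSCA.8, 0.152 in OSCA.78 and 344 in CNOB, against 5.43 to 42.1 (median 15.4) in the tumours, and CNOB minus the lines was 7.84 ± 0.81 (SE, limma adjusted p = 7e-08). S100A16, a calcium-binding protein, measured 0.195 FPKM in OSCA.8, 0.243 in OSCA.78 and 256 in CNOB, against 1.04 to 79.1 (median 11) in the tumours, and CNOB minus the lines was 7.72 ± 1.68 (SE, limma adjusted p = 0.00367). KCNMB1, the potassium channel subunit of smooth muscle, measured 0.0289 FPKM in OSCA.8, 0.338 in OSCA.78 and 211 in CNOB, against 0.98 to 51.7 (median 8.42) in the tumours, and CNOB minus the lines was 7.49 ± 1.44 (SE, limma adjusted p = 0.00119). In these 4 genes too CNOB lay above every tumour and both lines below every tumour. FABP3, a fatty acid binding protein of muscle, measured 1598 FPKM in OSCA.8, 504 in OSCA.78 and 5.55 in CNOB, against 10.2 to 409 (median 112) in the tumours, and CNOB minus the lines was -7.10 ± 1.34 (SE, limma adjusted p = 0.00096). KAZALD1, a secreted protein with an IGF-binding domain, measured 51.9 FPKM in OSCA.8, 163 in OSCA.78 and 0.388 in CNOB, against 3.55 to 46.2 (median 11.9) in the tumours, and CNOB minus the lines was -6.07 ± 1.01 (SE, limma adjusted p = 0.00026). MKI67, the proliferation marker, measured 21.2 FPKM in OSCA.8, 86.8 in OSCA.78 and 0.339 in CNOB, against 1.3 to 34.6 (median 11.2) in the tumours, and CNOB minus the lines was -5.04 ± 1.19 (SE, limma adjusted p = 0.00644). In these last 3 genes the direction was the opposite: CNOB lay below every tumour, and the lines above every tumour except OSCA.8 for MKI67, which lay inside their range. Without OSCA.78 the difference in MKI67 was -4.05, adjusted p = 0.0675. The other 9 had adjusted p below 0.05 without either line and under quantile normalisation and upper quartile scaling.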

How the results depend on the processing

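With all 3 cultures the number of rows called (4552) lay between 3715 and 4930 under other pseudocounts, filters, scalings, limma options and tumour units, or with the lines averaged. Upper quartile scaling gave 1553 higher in place of 2529, and 211 shared rises in place of 339, at the same direction for all genes described. Leaving out 1 culture gave 2506 (without CNOB) to 4963 (without OSCA.8) rows called, 2746 without OSCA.78, with 1292 to 2836 higher and 1030 to 2127 lower (1214 lower without CNOB). Of the 4552 rows 2095 were also called without CNOB and 2537 without OSCA.78, fits that hold 1 culture fewer. Since fewer cultures must then pass, shared rises numbered 441 to 1129 (578 without CNOB) and shared falls 628 to 1193 in these fits, and 682 shared rises were counted with the lines averaged into 1 culture. The 1471 rows that differed between CNOB and the lines were 431 after quantile normalisation, 674 with the lines averaged, and 883 to 929 without 1 line; without CNOB this comparison cannot be made. Titles of both lines share their numbers with a tumour each (8 and 78), but nothing in the labels says that they pair. The log2 difference between OSCA.8 and OSCA.78 and that between the tumours DOS.8 and DOS.78 correlated at r = 0.269 over 15122 genes. A fit with the replicate block on these 4 libraries called 0 rows, 0 higher and 0 lower, by limma (smallest adjusted p = 0.0723, with 3223 at an unadjusted p below 0.05). LEP and CRY1 were the genes described whose called values changed sign, LEP to -0.21 without CNOB and -0.13 in that block, and CRY1 to 0.13 in that block. Calls of CD8B, ZAP70, CFD, DMP1, FBN1, CYR61, KIF11, IMPDH2, GAA, DDB2, IFIT2, IRF9, CRY1 and CIART ended under quantile normalisation, and those of FBN1, CYR61, IMPDH2, PFKFB4, DDB2, OAS1 and IRF9 under upper quartile scaling. Lists of macrophages, endothelium, bone matrix and amino acid response kept their counts within 1.5 times in every fit with other scalings, filters or cultures. Those of cholesterol, fatty acids, NRF2, actin, complement, respiration, proteasome, mitochondrial ribosome, adhesion and interferon, among others, did not. The cause was not tested. Depth is unknown, so differences in genes near 1 FPKM are limited by the pseudocount.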

Other observations

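Gene families were also counted by the stems of their symbols, chosen after the values of single members had been seen. Mitochondrial carriers named SLC25A, which move metabolites across the inner membrane, were called higher in 12 of 33 tested (36.4%, with 4 shared rises) and lower in 2. Over all rows these shares were 16.7% and 13.4%. Zinc finger genes named ZNF, mostly transcriptional repressors, were called lower in 58 of 254 (22.8%, with 20 shared falls) and higher in 37. RNA helicases named DDX or DHX were called lower in 10 of 45 (22.2%, with 6 shared falls) and higher in 4. GIMAP genes, GTPases of lymphocytes and endothelium, were called lower in 5 of 6, all shared falls. CHMP genes, subunits that cut membranes in endosomal sorting, were called higher in 3 of 8, all shared rises. Of 4 CLK kinases, which phosphorylate splicing factors, 2 were shared falls, and of 11 SR splicing factors named SRSF 1 was called higher and 2 lower. Genes named TMEM were called higher in 45 of 180 (25%, with 10 shared rises) and lower in 15 (8.33%, with 4 shared falls).

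The 1 metastasis, which entered no main comparison and was added to the tumours in 1 alternative, lay above every primary tumour in 20 of the 339 shared rises and below every tumour in 14, and for the 653 shared falls it lay below every tumour in 40 and above in 19. Of all 15122 rows tested, the metastasis lay above every tumour in 744 and below every tumour in 543. It was below the tumour median in 47.5% of the shared rises, 58.5% of the shared falls and 47.5% of all rows tested, a description of 1 library. Of the deposited rows, 24 are named by a bare number in place of a symbol, and 20 of them were tested and left unnamed.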
